A study of Homo sapiens with 10 samples.

Results

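Long non-coding RNA (lncRNA) genes that start away from protein-coding promoters were examined in MDAMB231, a mesenchymal triple-negative human breast cancer cell line. For each GENCODE 44 gene of type lncRNA on chromosomes 1 to 22, the most 5′ annotated start was taken, and the site was kept when no protein-coding transcript started within 5 kb. This gave 13040 sites out of 18229 lncRNA genes, and the other 5189 had a coding start within that distance. Each site was widened by 1 kb on each side, and a peak was counted when it shared at least 1 base with the resulting region of 2001 bp.

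The cells were grown in DMEM with 5% FBS, without any treatment group. Chromatin immunoprecipitation sequencing (ChIP-seq) was carried out for the histone marks H3K4me3, H3K4me1 and H3K27Ac with 2 samples each and 1 input sample, and FAIRE-seq, which recovers DNA with few nucleosomes after crosslinking with 1% formaldehyde, with 2 samples and 1 input sample. Both samples of an assay had been combined into 1 list of peaks, so no error between replicates can be given from these lists for any value. The paper analysed the 2 samples separately before combining them, and its supplement lists peak statistics for replicates, which were not used here. On chromosomes 1 to 22 the lists held 17403 H3K4me3, 26355 H3K4me1, 36402 H3K27Ac and 44702 FAIRE peaks, and as lists of intervals they carry no count of reads per sample.

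The mesenchymal markers VIM, CD44, CAV1 and AXL each had an H3K4me3 and an H3K27Ac peak at a coding start. Neither mark was present at the epithelial cadherin gene CDH1 or at the basal keratins KRT5 and KRT14. The luminal genes ESR1, PGR and FOXA1 carried H3K4me3 without H3K27Ac, whereas GATA3, KRT8, EPCAM and TP63 carried both marks.

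H3K4me3 marks nucleosomes at active or poised promoters, and H3K4me1 without H3K4me3 is the usual signature of enhancers. H3K27Ac is found at promoters and enhancers in use, and FAIRE finds open chromatin at either. Many lncRNA genes have promoters of their own, while others begin inside enhancers, which are themselves transcribed at low levels. In breast cancer cells lncRNAs are known as scaffolds of nuclear bodies, as hosts of small RNAs and as regulators of stress responses.

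Sites with an H3K4me3 peak were called promoter-like, and sites with H3K4me1 but no H3K4me3 enhancer-like. The sequences around a few starts show how different such sites can be. They were read from GRCh37 in the direction of transcription, from 150 bases before the start base to 49 after it, and capitals mark CG dinucleotides. The promoter-like examples are among the sites with the widest H3K4me3 peaks and lie outside annotated UTRs of coding transcripts. NEAT1, which builds paraspeckles, starts in chr11:65190095-65190294 on the + strand with 16 CG dinucleotides in 200 bases. ENSG00000290057 starts in chr11:65188769-65188968 on the + strand under the same H3K4me3 peak and holds 5. Both lie outside coding genes.
NEAT1: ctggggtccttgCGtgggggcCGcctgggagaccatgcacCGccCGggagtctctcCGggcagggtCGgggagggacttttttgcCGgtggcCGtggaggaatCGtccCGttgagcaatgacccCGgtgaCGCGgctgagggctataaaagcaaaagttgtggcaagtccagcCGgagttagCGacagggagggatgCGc
ENSG00000290057: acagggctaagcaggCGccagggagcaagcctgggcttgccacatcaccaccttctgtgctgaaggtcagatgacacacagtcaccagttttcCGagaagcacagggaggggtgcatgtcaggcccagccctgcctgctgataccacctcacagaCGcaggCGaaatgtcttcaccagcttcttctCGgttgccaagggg

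The enhancer-like examples are among those with the highest H3K27Ac scores, ties being ordered by peak width. ENSG00000254605 begins in chr11:69867116-69867315 on the - strand, inside the chloride channel gene ANO1 on the opposite strand. MSRB3-AS1 begins in chr12:66036103-66036302 on the - strand outside coding genes. Their windows hold 5 and 1 CG dinucleotides, and the GC content of that of MSRB3-AS1 was 34.0%.
ENSG00000254605: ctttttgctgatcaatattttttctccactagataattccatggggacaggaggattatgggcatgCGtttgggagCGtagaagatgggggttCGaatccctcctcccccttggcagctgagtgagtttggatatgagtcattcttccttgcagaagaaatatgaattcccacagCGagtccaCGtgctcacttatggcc
MSRB3-AS1: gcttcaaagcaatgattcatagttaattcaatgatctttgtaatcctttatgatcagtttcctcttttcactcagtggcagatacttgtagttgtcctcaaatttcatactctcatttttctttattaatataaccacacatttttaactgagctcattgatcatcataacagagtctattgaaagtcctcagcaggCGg

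Starts with a FAIRE peak but no histone peak are represented by the tallest FAIRE peaks. ENSG00000264520 begins in chr7:30565197-30565396 on the + strand. ENSG00000255790 begins in chr12:11639593-11639792 and LINC02811 in chr1:40283083-40283282, both on the - strand. These windows hold 4, 7 and 5 CG dinucleotides. The FAIRE peak covered the start base of ENSG00000255790, but it lay 625 bp from that of ENSG00000264520 and 211 bp from that of LINC02811, outside both printed windows.
ENSG00000264520: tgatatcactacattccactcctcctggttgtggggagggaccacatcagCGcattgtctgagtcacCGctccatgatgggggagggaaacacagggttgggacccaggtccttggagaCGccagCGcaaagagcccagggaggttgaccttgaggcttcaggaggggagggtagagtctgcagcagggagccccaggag
ENSG00000255790: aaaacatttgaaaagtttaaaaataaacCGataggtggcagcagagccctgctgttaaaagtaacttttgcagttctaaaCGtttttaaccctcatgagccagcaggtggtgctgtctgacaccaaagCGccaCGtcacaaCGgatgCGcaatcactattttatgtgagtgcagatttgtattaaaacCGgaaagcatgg
LINC02811: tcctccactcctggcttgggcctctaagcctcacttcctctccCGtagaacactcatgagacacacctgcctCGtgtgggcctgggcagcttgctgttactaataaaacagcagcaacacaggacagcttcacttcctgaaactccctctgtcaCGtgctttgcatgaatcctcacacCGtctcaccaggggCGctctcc

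At most lncRNA starts away from coding promoters no peak was called. No peak of the 4 lists was found at 10550 of 13040 sites (80.9%, 95% Wilson interval 80.2% to 81.6%), against 65.2% of all 61221 gene starts on these chromosomes. H3K4me3 was found at 1185 sites (9.09%, 8.61% to 9.59%), well under the 28.9% of all gene starts. H3K4me1 was present at 1064 sites (8.16%, 7.70% to 8.64%), close to the 8.60% of all gene starts. H3K27Ac peaks lay at 1747 sites (13.4%), against 29.3% of all gene starts, and FAIRE peaks at 1230 sites (9.43%, 8.94% to 9.95%), against 16.0%. The H3K4me1 count fell to 706 when only peaks with a score of 100 or more were counted, and the FAIRE count fell to 763 when the start base had to lie in the peak and to 710 with peaks at or above the median height. Enhancer-like sites numbered 855 (6.56%, 6.14% to 6.99%), where the share of all gene starts was 3.80%. The remaining 450 sites (3.45%) held H3K27Ac or FAIRE peaks only, as did 1.16% of coding gene starts and 2.03% of starts of genes that are neither lncRNA nor coding. Neighbouring sites share peaks and are not independent, so these intervals cover counting over sites only.

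Compared with the genome at large, each mark was still more frequent at these starts. Of 1341361 windows of the same length tiled over chromosomes 1 to 22, 40287 met an H3K4me3 peak, 5.53% an H3K4me1 peak, 6.95% an H3K27Ac peak and 4.52% a FAIRE peak. The enhancer-like share of the windows was 4.95%, which is nearer to that of the lncRNA starts than the promoter-like share. The bars for each class of start in the plot of peak shares give these values side by side.

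**Figure D1:**
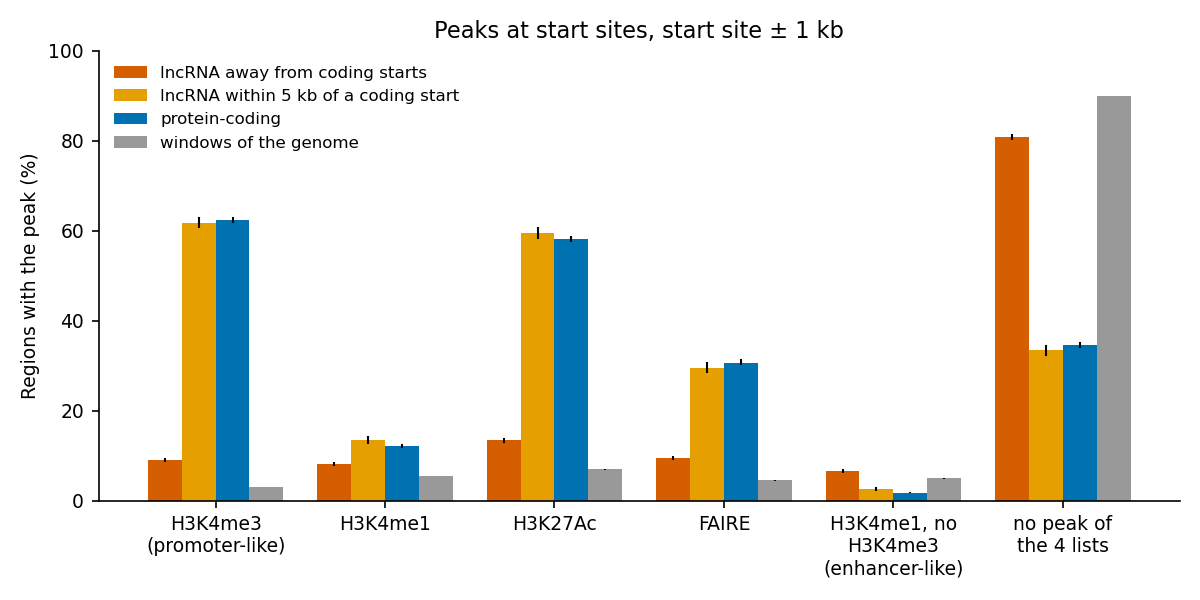
Share of regions (%) that met a peak of each list, for lncRNA starts away from coding starts (n = 13040), lncRNA starts within 5 kb of a coding start (n = 5189), protein-coding gene starts (n = 19229) and genome windows of 2001 bp (n = 1341361). Error bars are 95% Wilson intervals. The orange-red bars stay far under the blue ones for H3K4me3, H3K27Ac and FAIRE but exceed them for the enhancer-like state (6.56% against 1.78%). That state leaves out sites with H3K4me3, and for H3K4me1 itself the orange-red bar is the lower (8.16% against 12.2%).

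Protein-coding starts differed from these sites in nearly every count. H3K4me3 was present at 62.4% of 19229 coding gene starts (61.7% to 63.1%), H3K27Ac at 58.2% and FAIRE at 30.7%. Enhancer-like starts were rarer among coding genes, with 342 (1.78%, 1.60% to 1.98%). That state leaves out every site with H3K4me3, so its share depends on H3K4me3 as well as on H3K4me1. H3K4me1 itself was found at 12.2% of coding starts and 13.4% of lncRNA starts within 5 kb of one. At the lncRNA sites described it was found at 8.16%. The lncRNA starts within 5 kb of a coding start resembled coding starts, with H3K4me3 at 61.8% (60.5% to 63.1%) and the enhancer-like state at 2.60%. Of these, 2740 lay within 0.5 kb of a coding start, so their regions contained that start and could meet the same peak. H3K4me3 was found at 81.0% of those 2740 and at 16.1% of the lncRNA starts at 2 to 5 kb. The ratio of promoter-like to enhancer-like sites was far more even away from coding promoters, with 1185 against 855 sites.

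Within the promoter-like sites, H3K27Ac accompanied H3K4me3 at 895 of 1185 (75.5%, 73.0% to 77.9%), compared with 90.1% of promoter-like coding starts (89.6% to 90.6%). FAIRE peaks were found at 472 of them (39.8%, 37.1% to 42.6%), compared with 46.9% of the coding ones. A further 260 promoter-like lncRNA sites (21.9%, 19.7% to 24.4%) had neither H3K27Ac nor FAIRE, while among coding starts this share was 8.85%. H3K4me1 was also present at 209 promoter-like lncRNA sites (17.6%), much like the 16.7% of promoter-like coding starts. Where H3K27Ac was present, FAIRE followed at 49.4% of the lncRNA sites and 50.9% of the coding ones. Without H3K27Ac these shares were 10.3% and 10.6%, within 2 percentage points of each other in each case.

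Enhancer-like sites were acetylated at 606 of 855 (70.9%, 67.7% to 73.8%), and 441 (51.6%, 48.2% to 54.9%) had a FAIRE peak. Enhancer-like coding starts had H3K27Ac at 68.4% (63.3% to 73.1%) and FAIRE at 44.4% (39.3% to 49.7%), intervals that overlap with those of the lncRNA sites. H3K27Ac and FAIRE occurred together with H3K4me1 at 378 sites (44.2%), the most frequent combination in this class. H3K4me1 alone was seen at 186 sites (21.8%), against 27.2% of enhancer-like coding starts. FAIRE peaks thus met the region of enhancer-like sites more often than that of promoter-like ones, although at the start base itself they covered 27.8% and 30.8%, respectively. The median height was 77.1 (quartiles 58.9 and 103) at enhancer-like and 65.2 (50.6 and 88.2) at promoter-like sites. The height is the authors' own signal value, and its median over all FAIRE peaks of chromosomes 1 to 22 was 61.9.

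H3K4me3 peaks at promoter-like lncRNA starts were narrower than those at coding starts, and so were H3K27Ac peaks (medians 2752 and 3196 bp), but H3K4me1 peaks (5108 and 3830 bp) and FAIRE peaks (886 and 840 bp) were wider. The median width of the H3K4me3 peak was 2210 bp (quartiles 1687 and 2767) at lncRNA sites and 2971 bp (2446 and 3644) at coding starts, against 2530 bp in the whole list. The authors' score, which is minus 10 times the log10 of the peak's MACS p-value, had a median of 1781 at lncRNA sites. Scores bunch at 3100, a value reached at 439 of the 1185 lncRNA sites with H3K4me3 and by 57.3% of the list, so that the strongest peaks cannot be ranked by score. At enhancer-like sites the H3K4me1 peak was 3960 bp wide in the median (quartiles 2683 and 6102), wider than the 3049 bp of the whole list, and the H3K27Ac peak 3362 bp against 2675 bp. At enhancer-like coding starts these medians were 4349 bp and 3304 bp, so the greater width is shared with them. A wide peak meets a region more readily than a narrow one, and the widest peak was taken at each site. Widths at sites are therefore not directly comparable with those of the whole list.

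Peak coverage by distance showed where the marks sat. Over all lncRNA sites, H3K4me3 covered 8.24% of start bases and 1.83% of the bases 2 kb downstream. H3K27Ac covered 11.4% and FAIRE 5.85% of start bases, and both fell steeply on either side. H3K4me1 was flatter, with 6.39% at the start, 4.83% at 2 kb upstream and 5.39% at 2 kb downstream. At coding starts H3K4me1 dipped at the start to 5.53% and rose to 9.87% at 1800 bp downstream, a dip that was absent from the average of the lncRNA starts. Around enhancer-like lncRNA starts H3K4me1 stayed broad, with 47.8% of sites covered at 2 kb upstream and 52.4% at 2 kb downstream. Coverage by H3K4me3 over all sites was lower at 2 kb upstream (1.20%) than at 10 kb upstream (2.33%), a distance at which coding starts are allowed by the choice of sites.

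**Figure D2:**
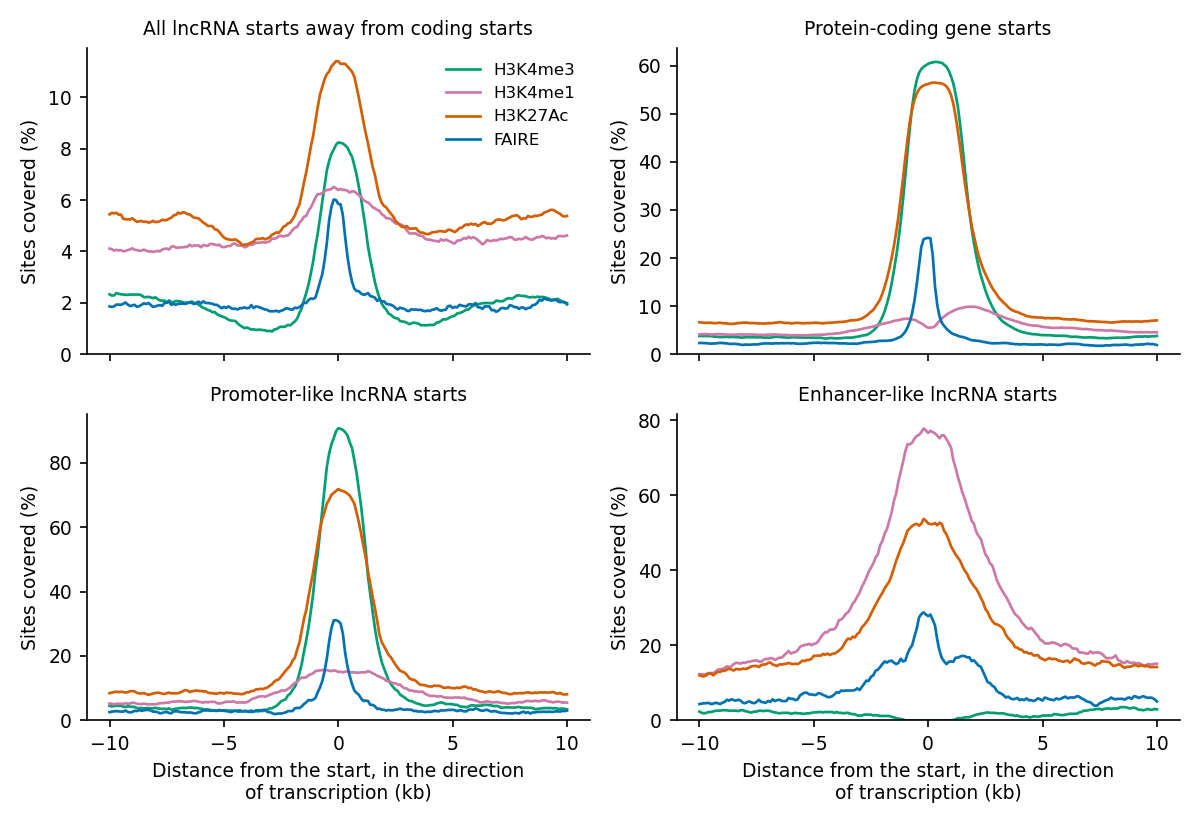
Share of sites (%) covered by a peak of each list at 100 bp steps from 10 kb upstream to 10 kb downstream of the start, for all lncRNA starts away from coding starts, coding gene starts, and promoter-like and enhancer-like lncRNA starts (each panel has its own vertical scale). H3K4me3 and FAIRE form narrow peaks at the start, except around enhancer-like starts, which have no H3K4me3 within 1 kb by definition. Around these, FAIRE covers 27.8% at the start and still 15.0% at 2 kb upstream and 16.0% at 2 kb downstream. H3K4me1 around enhancer-like starts is broad and nearly symmetric.

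H3K4me3 peaks at coding starts reach further into the gene than away from it, and the lncRNA sites showed this less. The widest H3K4me3 peak at a site extended a median of 925 bp upstream and 1235 bp downstream of promoter-like lncRNA starts, and more downstream than upstream at 766 of 1185 (64.6%). The corresponding values for coding starts were 1115 bp, 1743 bp and 79.0%. H3K4me1 peaks at enhancer-like lncRNA starts extended more downstream at 429 of 855 (50.2%), with medians of 1793 bp upstream and 2008 bp downstream.

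CpG content differed widely between promoter-like sites and the others. The observed over expected CpG ratio of the region had a median of 0.554 (quartiles 0.409 and 0.684) at promoter-like lncRNA sites, 0.203 (0.154 and 0.281) at enhancer-like sites and 0.225 (0.163 and 0.314) at sites with no peak. A ratio of 0.6 or more was found at 848 lncRNA sites (6.50%) and at 52.5% of coding starts. Of those 848 sites, 512 (60.4%, 57.0% to 63.6%) were promoter-like, compared with 59 of 4903 (1.20%, 0.934% to 1.55%) at ratios under 0.2. The enhancer-like share ran the other way, from 417 (8.50%, 7.76% to 9.32%) at ratios under 0.2 down to 7 (0.825%) at 0.6 or more.

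The gap in the promoter-like share to coding starts persisted within CpG classes. At ratios of 0.6 or more, 88.1% of coding starts (87.4% to 88.7%) were promoter-like against 60.4% of the lncRNA sites. Between 0.4 and 0.6 the shares were 70.3% (68.7% to 71.8%) and 25.7% (23.5% to 27.9%), respectively. Between 0.2 and 0.4 they were 16.4% and 3.91%. In the same classes the lncRNA starts near coding starts reached 87.1% and 67.3% in the upper 2, and 270 of 1174 in the lowest of the 3.

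**Figure D3:**
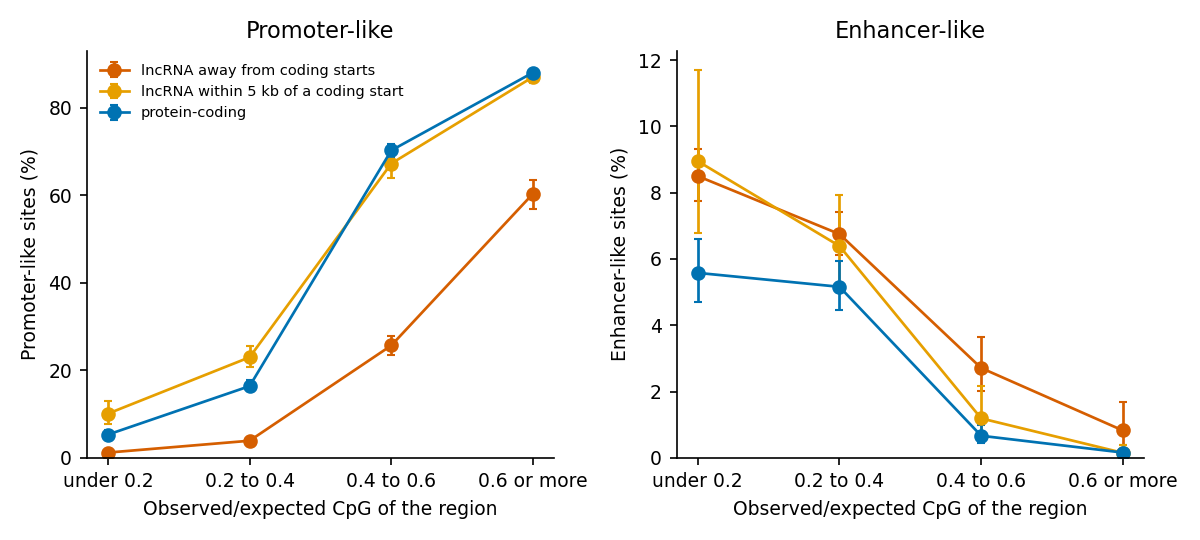
Share of promoter-like (left) and enhancer-like (right) starts (%) by observed over expected CpG of the region, for lncRNA starts away from coding starts, lncRNA starts within 5 kb of one and coding gene starts, with 95% Wilson intervals. Promoter-like shares rise with CpG in all 3 groups, and the lncRNA starts away from coding starts remain lowest in each class.

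Short motifs were searched on both strands in 300 bases, from 250 before the start to 49 after it. The GC box GGGCGG was present at 593 of 1185 promoter-like sites (47.2% to 52.9%), 62 enhancer-like sites (7.25%) and 9.82% of sites with no peak, with 26.9% for all gene starts. The TATA box TATAAA was least frequent at promoter-like sites. It was present at 91 promoter-like sites (7.68%), 165 enhancer-like sites (19.3%) and 20.3% of sites with no peak, with 17.4% for all gene starts. At promoter-like coding starts and coding starts with no peak, TATAAA was at 6.01% and 19.3%, and GGGCGG at 67.6% and 27.8%. Motif shares were not adjusted for the median GC content of the regions, 53.9% at promoter-like, 43.5% at enhancer-like and 43.7% at sites with no peak. The AP-1 site TGACTCA was found at 123 enhancer-like sites (14.4%, 12.2% to 16.9%) and at 64 of the 450 sites with H3K27Ac or FAIRE only (14.2%, 11.3% to 17.8%). Its share at enhancer-like coding starts was nearly the same, 14.3% (11.0% to 18.4%). It was found at 82 promoter-like sites (6.92%, 5.61% to 8.51%), 606 sites with no peak (5.74%, 5.32% to 6.20%) and 4.70% of all gene starts. CCAAT hardly varied, between 34.8% and 37.4% over the 4 states, with 36.4% for all gene starts. In the sequences above, TGACTCA or its reverse complement occurs once in each of the windows of ENSG00000254605 and ENSG00000264520, and GGGCGG or its reverse complement and TATAAA are both found in that of NEAT1. A match describes the sequence and does not show that a factor binds there.

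Position relative to coding genes mattered for promoter-like sites. Of 9091 sites outside coding genes, 1035 (11.4%, 10.7% to 12.1%) were promoter-like. Inside a coding gene on the opposite strand the share was 103 of 2792 (3.69%, 3.05% to 4.45%), and on the same strand 45 of 1061 (4.24%, 3.18% to 5.63%). Enhancer-like shares were nearly level, at 6.38%, 7.31% and 6.03% in the same order. Genes with 1 exon were promoter-like at 10.9% (9.52% to 12.5%) and genes with 2 or more exons at 8.81% (8.30% to 9.35%). By gene length, the promoter-like share was 8.45% under 1 kb, lowest at 1 to 5 kb with 277 of 3959 genes (6.24% to 7.83%), 9.16% at 5 to 20 kb, 11.2% at 20 to 100 kb and 11.9% over 100 kb.

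The promoter-like share fell steeply within the first 5 kb from coding starts, changed little up to 50 kb and was lower beyond. It was 81.0% among lncRNA starts within 0.5 kb of a coding start and 16.1% at 2 to 5 kb. Among the sites described here, it was 10.7% (9.14% to 12.4%) at 5 to 10 kb, 12.3% at 10 to 20 kb, 11.6% at 20 to 50 kb, 9.23% at 50 to 100 kb and 5.59% (4.96% to 6.30%) beyond 100 kb. The enhancer-like share lay between 5.68% and 7.68% in these distance classes. On either side of the 5 kb limit, 37 of 322 lncRNA starts at 5 to 6 kb (11.5%) and 38 of 346 at 4 to 5 kb (11.0%) were promoter-like, and 24 and 20 were enhancer-like. The nearest sites inside the selection were ENSG00000288103 at 5016 bp, ENSG00000230234 and FXYD6-AS1 at 5021 bp, LILRB1-AS1 at 5023 bp and ENSG00000285006 at 5025 bp, of which the last was enhancer-like with H3K27Ac and FAIRE and the others had no peak. Just outside it were ENSG00000261292 at 4998 bp, ENSG00000237529 at 4993 bp, ENSG00000230033 at 4991 bp, PRRT3-AS1 at 4986 bp and ENSG00000287891 at 4983 bp, of which PRRT3-AS1 was promoter-like and the others had no peak.

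**Figure D4:**
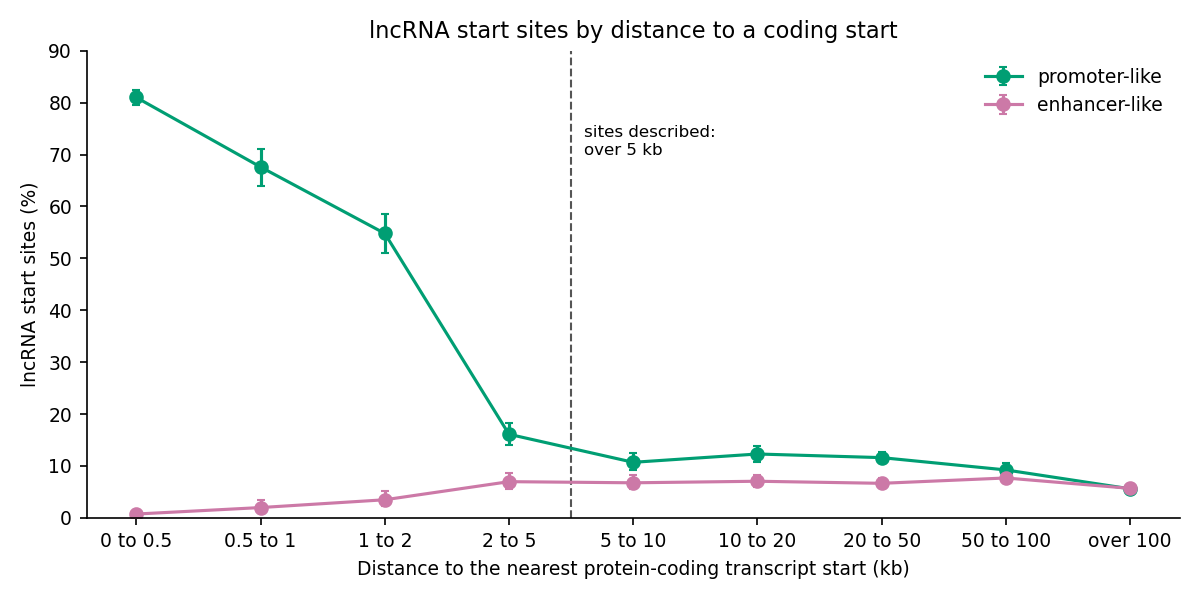
Share of lncRNA starts (%) that were promoter-like or enhancer-like by distance (kb) to the nearest protein-coding transcript start, with 95% Wilson intervals. The dashed line marks the 5 kb limit, to the right of which the promoter-like share stays between 5.59% and 12.3%.

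Because the sites lie more than 5 kb from coding starts, few of their H3K4me3 peaks can reach one, and a protein-coding transcript start lay inside the peak at 3 of 1185 sites (0.253%). A start of another kind of transcript of a coding gene lay within 5 kb of 63 (5.32%), against 1009 of all sites (7.74%). The 1185 sites drew on 985 separate peaks, and 379 sites (32.0%) shared a peak with another of these sites. Start sites of genes outside the set, such as pseudogenes and small RNAs, lay within 1 kb of 222 (18.7%) of the promoter-like sites and of 723 of all 13040 sites. The promoter-like share was 30.7% among those 723 and 7.82% elsewhere.

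Very wide H3K4me3 peaks, though not the widest, lay at lncRNAs of nuclear bodies. NEAT1 and ENSG00000290057 shared a peak of 13352 bp together with an H3K27Ac peak of 15516 bp. MALAT1, a lncRNA of nuclear speckles, its antisense partner TALAM1 and ENSG00000270117 shared an H3K4me3 peak of 12834 bp and an H3K27Ac peak of 25136 bp. In both cases 1 peak served several starts, so the sites are not separate observations.

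ENSG00000277945 starts within HMGA2, an architectural chromatin gene, 5627 bp from a coding start of that gene. Its H3K4me3 peak of 9802 bp also covered that coding start, so the peak cannot be assigned to the lncRNA. The CpG ratio of its region was 0.177, the lowest of the 10 sites with the widest peaks, where the highest was 0.743. LINC02939 and ENSG00000289044 shared a peak of 9419 bp. MIR23AHG, the host of a microRNA cluster, had a peak of 8812 bp within an H3K27Ac domain of 22325 bp. Of the 10 sites with the widest peaks, several of which share peaks, all had H3K27Ac, 6 FAIRE and 3 H3K4me1, against 75.5%, 39.8% and 17.6% of all promoter-like sites.

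The 10 enhancer-like starts examined singly were taken by H3K27Ac score and, where scores were tied at 3100, by the width of the peak. ENSG00000254605 in ANO1 had the highest H3K27Ac score, 3216, over 7224 bp. MSRB3-AS1, one of those tied at 3100, had an H3K27Ac peak of 34924 bp and an H3K4me1 peak of 5151 bp. All 10 annotated starts of MSRB3-AS1 away from coding starts were enhancer-like. The nearest H3K4me3 peak was 37909 bp from its most 5′ start.

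ENSG00000224000 had the highest H3K4me1 score of the 10, 1724, and an H3K27Ac peak of 26650 bp. An H3K4me3 peak lay only 2392 bp from its start, and a region reaching that far would have made it promoter-like. ENSG00000224950 and ENSG00000286276 start on opposite strands under the same H3K27Ac peak of 15671 bp, and the nearest coding start for each belongs to CD58, a cell adhesion ligand of T cells. ENSG00000266088 starts 15269 bp from the focal adhesion gene TNS4 with a FAIRE peak of height 168, and ENSG00000274598 lies inside SSH1, a phosphatase that activates cofilin. FAIRE was present at 7 of the 10, against 51.6% of all enhancer-like sites and 62.4% of those with H3K27Ac, which all 10 had. H3K4me3 was absent within 1 kb by definition, and the distances to the nearest H3K4me3 peak ranged from 2392 to 181153 bp.

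FAIRE without any histone peak was found at 204 sites (1.56%). The tallest belonged to ENSG00000264520 (height 115), ENSG00000255790 (106), LINC02811 (105), ENSG00000286463 (99.3) and ENSG00000236352 (97.3). The last starts inside BCAS1, a gene amplified in some breast tumours, and ENSG00000286463 inside the transcription factor gene ZBTB16. Their nearest H3K27Ac peaks were between 2659 and 130025 bp away. The nearest H3K4me3 peaks were between 19619 and 161520 bp away.

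Among kinds of lncRNA gene, hosts of small nucleolar RNAs (snoRNAs) stood at the top. These genes carry snoRNAs in their introns and are transcribed in most cells together with the translation machinery. Of the 18 SNHG genes among the sites, 16 (88.9%, 67.2% to 96.9%) were promoter-like, none was enhancer-like and 2 had no peak. Over all sites the promoter-like share was 9.09%, and over all gene starts it was 28.9%. The CpG ratio at the 16 promoter-like hosts ran from 0.517 to 0.972 with a median of 0.677. Among all lncRNA sites described with a ratio of 0.6 or more, 60.4% were promoter-like. Against 75.5% and 39.8% of all promoter-like sites, all 16 of these hosts had an H3K27Ac peak and 9 had a FAIRE peak. Their H3K4me3 peaks were 1808 to 5648 bp wide with a median of 3748 bp, wider than the 2210 bp of promoter-like sites as a whole. SNHG5 had a peak of 5637 bp, SNHG32 one of 5648 bp and SNHG8 one of 4282 bp. SNHG11 had the narrowest, 1808 bp, and an H3K27Ac score of 103, the lowest of the group. The 2 without a peak were SNHG14, which starts in the imprinted region of chromosome 15 on the same strand as a coding gene, and SNHG27, whose nearest H3K4me3 peak lay 1691 bp away. Among lncRNA starts within 5 kb of a coding start, 10 of 11 snoRNA hosts and 12 of 14 microRNA hosts were promoter-like, where the share of all such lncRNA starts was 61.8%.

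Hosts of microRNAs were more divided. Of 63 sites, 18 (28.6%, 18.9% to 40.7%) were promoter-like, 2 enhancer-like and 41 without a peak. The promoter-like share was 9.09% over all sites and 28.9% over all gene starts. MIR17HG, the host of the oncogenic miR-17 cluster, had an H3K4me3 peak of 4399 bp and an H3K27Ac peak of 4274 bp. The let-7 hosts MIRLET7A1HG, MIRLET7BHG and MIRLET7IHG had H3K4me3 peaks of 3965, 6506 and 4218 bp, with H3K27Ac at each. MIR181A1HG had a peak of 6598 bp and a FAIRE peak of height 129. MIR210HG, whose microRNA responds to hypoxia, had a peak of 2884 bp. The enhancer-like hosts were MIR2052HG and MIR3681HG, with H3K4me1 peaks of 2733 and 6334 bp and H3K4me1 scores of 87.7 and 109.

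The 41 hosts without a peak (65.1%, against 80.9% of all sites and 65.2% of all gene starts) included some of microRNAs known from other tissues, such as MIR122HG of liver, MIR124-1HG and MIR124-2HG of neurons, MIR133A1HG and MIR1-1HG of muscle, MIR155HG of lymphoid cells, and MIR205HG of basal epithelium. They were picked out after their values were seen, and MIR9-1HG, the host of a neural microRNA, was promoter-like with H3K27Ac and a FAIRE peak of height 82.4. MIR31HG also had no peak despite a CpG ratio of 0.808, and its nearest H3K4me3, H3K27Ac and FAIRE peaks were 874058, 802819 and 827298 bp away. The nearest coding start, that of the interferon gene IFNE, was 77578 bp away. DNA copy number was not analysed here.

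For some hosts the most 5′ start missed the marked one. Of the 41 without a peak, 7 had H3K4me3 at another annotated start away from coding starts. MIR4435-2HG had it at 42 of 73 such starts, MIR100HG at 14 of 87 and MIR29B2CHG at 9 of 13. MIR100HG was also enhancer-like at 31 starts. Over all sites, 11855 had no H3K4me3 at the most 5′ start, 3530 of these had several starts, and 123 of the 3530 had H3K4me3 at another one.

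**Figure D5:**
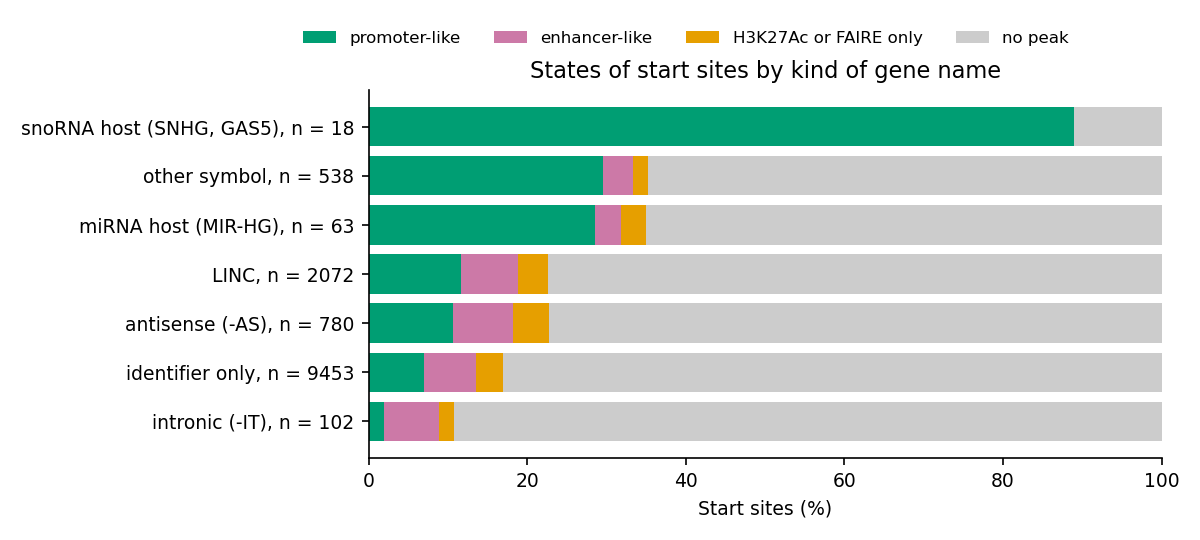
State of lncRNA starts away from coding starts (%) by kind of gene name, with the number of sites beside each bar. The snoRNA hosts are promoter-like at 88.9%, genes with only an identifier at 7.02% and intronic transcripts at 1.96%; the small -DT and -OT classes, with 6 and 8 sites, are not drawn.

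Genes with a symbol of their own that fits no naming series were promoter-like at 159 of 538 (29.6%, 25.9% to 33.5%), a share close to that of microRNA hosts. The share was 242 of 2072 (11.7%, 10.4% to 13.1%) for LINC genes and 83 of 780 (10.6%, 8.67% to 13.0%) for antisense genes. It was 664 of 9453 (7.02%, 6.53% to 7.56%) for genes that have only an identifier, and 2 of 102 (1.96%) for intronic ones. Enhancer-like shares were 7.14% for LINC genes, 7.56% for antisense genes, 6.54% for genes with an identifier and 3.72% (2.42% to 5.67%) for those with another symbol. The plot of states by kind of name shows both shares.

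Among lncRNAs with known roles, NORAD, which sequesters PUMILIO proteins after DNA damage, was promoter-like with an H3K4me3 peak of 3358 bp, H3K27Ac and a FAIRE peak of height 53.8. PURPL, a target of p53, had an H3K4me3 peak of 2462 bp without H3K27Ac, the nearest peak of which was 23349 bp away. LINC-PINT and PANDAR start within 5 kb of a coding start and were not among the sites, and no gene of the annotation was named TP53COR1. HOTAIR, HOTTIP and HOTAIRM1 of the HOX clusters were likewise too close to coding starts.

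Of 16 lncRNAs listed for their roles in cancer, 13 were among the sites, and 7 of these were promoter-like (53.8%, 29.1% to 76.8%), where the share was 9.09% of all sites and 28.9% of all gene starts. DANCR, LINC01116 and LINC00472 had H3K4me3 peaks of 3043, 3639 and 4017 bp in regions with CpG ratios of 0.673, 0.906 and 0.948. LUCAT1, which responds to oxidative stress, combined all 4 marks, with a modest H3K4me3 score of 332, an H3K4me1 score of 491, an H3K27Ac score of 3100 and a FAIRE height of 150. CYTOR had an H3K4me3 peak 613 bp from its most 5′ start, and 20 of its 33 starts met an H3K4me3 peak. SAMMSON, known from melanoma, had an H3K4me3 score of 963 and no FAIRE peak. MIAT was marked weakly, with an H3K27Ac score of 97.1 and an H3K4me3 score of 54.1, close to the lowest H3K4me3 score, 50.01.

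LINC00460 was the only enhancer-like gene of the cancer list, with an H3K4me1 peak of 7812 bp and an H3K27Ac peak 891 bp from its start. All 7 of its starts were enhancer-like, and the nearest H3K4me3 peak was 24361 bp away. No peak was found at UCA1, BCAR4, LINC-ROR, LINC00511 or DSCAM-AS1, the last a transcript of oestrogen receptor positive tumours. LINC00511 had H3K4me3 at 25 of its 84 starts, so the absence of a peak belongs to its most 5′ start. TUG1 was annotated as protein-coding, LINC01133 starts near a coding gene, and no gene was named LINC02154.

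Of 5 imprinted lncRNAs, 4 had no peak, and the share of all sites without a peak was 80.9%. KCNQ1OT1, which silences its cluster in cis, was promoter-like with an H3K4me3 peak of 3725 bp and H3K27Ac. H19, MEG3, MEG8 and MEG9 had no peak, and their nearest H3K4me3 peaks were 55397, 85612, 200972 and 349110 bp away. The developmental lncRNAs CARMN of smooth muscle and DNM3OS of mesenchyme had no peak either, and neither FENDRR, near a coding start, nor TINCR, annotated as protein-coding, was among the sites.

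The promoter-like share differed among chromosomes, from 22 of 436 sites (5.05%, 3.36% to 7.52%) on chromosome 18 to 89 of 623 (14.3%, 11.8% to 17.3%) on chromosome 7. Chromosome 19 combined a high promoter-like share of 12.5% (9.56% to 16.1%) with the lowest enhancer-like share, 1.78% (0.865% to 3.63%). Chromosome 12 had the highest enhancer-like share, 74 of 723 (10.2%, 8.23% to 12.7%). Coding starts did not show the same order, with promoter-like shares of 64.3% on chromosome 18 and 61.1% on chromosome 7. Their enhancer-like share was 1.01% on chromosome 19 and 2.02% on chromosome 12. Copy number of the chromosomes was not analysed here.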

How the data were processed

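The 4 peak lists came from MDAMB231 ChIP-seq and FAIRE-seq, 2 samples per assay, combined by the authors before deposit. Per the study's methods, reads were aligned to GRCh37 (hg19) with BWA 0.6.1, duplicates and reads under mapping quality 30 were removed, MACS at default settings called histone peaks against input, and FindPeaks 4.0 called FAIRE peaks. The submitters' processing notes also name TopHat and HOMER. Each histone peak carries the authors' score, the negative log10 of its MACS p-value multiplied by 10. The deposited FAIRE value is the height of the signal as the authors gave it. No depth per sample can be read from peak lists.

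Starts came from GENCODE 44 lifted to GRCh37, and overlaps of at least 1 base with the region of 1 kb on each side were found using pandas 2.3.3 with numpy 2.4.6. Counting was tested on simulated data against bedtools 2.31.1. Intervals are 95% Wilson intervals from scipy 1.17.1, sequence was indexed with samtools 1.23.1, and figures were drawn with matplotlib 3.10.9. No test was run, since each assay has 1 list and sites are not replicates. Genes named are a list of known lncRNAs by role, the 10 widest H3K4me3 peaks at promoter-like sites, the 10 highest H3K27Ac scores at enhancer-like sites, with scores tied at 3100 ordered by peak width (not all of either 10 are described), the 5 tallest FAIRE peaks without histone peaks, and the 5 sites nearest to the limit on each side. The members and lists were chosen with earlier results of these data known. Alternatives covered region width, overlap, peak thresholds, coding distance, choice of start and choice of genes.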

Additional observations from a re-analysis of the deposited data

How the results depend on the processing

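The counts were recomputed under 17 alternatives, 3 of which were chosen after seeing the data. Of 97 recomputed counts, 88 stayed within 1.5 times of the reported count, among them counts that an alternative cannot change, such as histone counts when only FAIRE peaks were thinned. As shares of sites, promoter-like sites ranged from 7.82% to 9.91%, enhancer-like sites from 4.57% to 7.87%, H3K27Ac sites from 11.4% to 15.2%, and sites without a peak from 78.0% to 84.3%. With MACS scores of 100 or more, 706 sites kept an H3K4me1 peak (5.41%). FAIRE sites numbered 763 (5.85%) when the start base itself had to lie in the peak, and 710 (5.44%) when only peaks at or above the median height counted. Taking GENCODE evidence level 1 only, an alternative chosen after seeing the data, left 1497 sites, of which 127 were promoter-like (8.48%), 108 enhancer-like (7.21%) and 1211 without a peak (80.9%), with H3K4me1 at 138, H3K27Ac at 203 and FAIRE at 146; these counts fell because fewer genes were counted. Evidence levels 1 and 2 hold every one of the 13040 sites, so that alternative changed nothing by construction. Requiring no H3K4me3 peak within 5 kb left 793 enhancer-like sites.

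No paired analysis was possible because both samples of an assay had been merged into 1 list, so no replicate was left out either. Depth per sample and the reads removed for low mapping quality were not measured here, so the absence of a peak is not evidence of an unmarked start.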

Other observations

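Seen from the lists, lncRNA starts accounted for a larger share of the H3K4me3 peaks away from coding starts than of the other peaks away from them. Of 17403 H3K4me3 peaks on chromosomes 1 to 22, 4749 (27.3%) lay more than 5 kb from any protein-coding transcript start. Of these, 957 (20.2%) met a region of the lncRNA sites described, 248 (5.22%) met only a start region of another non-coding gene, and 3544 (74.6%) met neither. The distal H3K4me3 peaks at lncRNA sites had a median width of 2117 bp and a median score of 1488, whereas the other distal peaks had medians of 1427 bp and 187. A wide peak meets a region more readily than a narrow one, so these widths are not directly comparable. For H3K4me1, 958 of 21086 distal peaks (4.54%, 95% Wilson interval 4.27% to 4.83%) met a lncRNA site, for H3K27Ac 1476 of 22612 (6.53%), and for FAIRE 1259 of 33366 (3.77%).

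Pairs of lncRNA genes that start head to head within 1 kb on opposite strands were often promoter-like. Of 422 sites in such pairs, 158 (37.4%, 33.0% to 42.2%) had H3K4me3 and 19 (4.50%) were enhancer-like, whereas the other 12618 sites had shares of 8.14% (7.67% to 8.63%) and 6.63%. FAIRE peaks were found at 22.7% of the paired sites and 8.99% of the others. Both members of a pair can meet the same peak, so these sites are not separate observations.

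Sites without any peak have none within 1 kb by their definition. The median distance from their starts was 41970 bp to the nearest H3K27Ac peak, 40726 bp to a FAIRE peak, 71602 bp to an H3K4me3 peak and 73352 bp to an H3K4me1 peak, while over all 13040 sites these medians were 29784, 30236, 55108 and 57766 bp. An H3K27Ac peak lay within 10 kb of 1898 of these 10550 sites (18.0%). Among the 10550, 318 (3.01%) had a CpG ratio of 0.6 or more.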
